A study of Homo sapiens with 24 samples.

Results

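The 40 genes described here encode the machinery of G2 and mitosis. They were picked by name from a table of 63677 genes. No measured value entered the rule, though earlier results of these data were known. All 40 were among the 19377 genes expressed highly enough to be tested. They fall into 8 role classes, which are mitotic entry (7 genes), the Aurora kinases and their partners (4), kinetochore and spindle checkpoint (8), spindle (7), central spindle and cytokinesis (6), anaphase (4), transcription factors (2) and chromosome and proliferation markers (2). RNA was sequenced from 3 human hepatocellular carcinoma lines bought from ATCC and labelled as wild type, SNU475, SNU398 and HepG2. Each line received decitabine (5-Aza-CdR, 100 nM daily), the EZH2 inhibitor GSK-126 (500 nM daily), both drugs together, or DPBS, the buffer control. Dosing lasted 3 days in every group, and cells were harvested on day 21 for SNU475 and on day 14 for SNU398 and HepG2. Each of the 12 groups has 2 libraries, A and B. The sources used here leave it unsaid if A and B are independent cultures. P-values therefore measure the spread between these libraries, which may be technical. Line and harvest day cannot be told apart, because SNU475 alone was harvested on the later day.

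Cells enter mitosis when CDK1 bound to cyclin A or cyclin B becomes active. The Aurora and Polo-like kinases then build the spindle, kinetochore proteins tie the chromosomes to it, and the spindle checkpoint holds the anaphase-promoting complex until every chromosome is attached. Most of the genes involved are switched on together late in the cell cycle by complexes that contain the transcription factors B-MYB (MYBL2) and FOXM1, and in liver tumours they are widely used as a readout of proliferating cells. Decitabine is a cytidine analogue that traps and depletes DNA methyltransferases, and GSK-126 blocks the histone methyltransferase EZH2, the catalytic subunit of a Polycomb repressive complex.

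Library depth recovered from the table was 20424345 to 38398988 reads in genes, which made up 57.2% to 69.5% of each library's reads. A value of a member gene rested on 161 to 24973 reads. Levels are the deposited RPKM, reads normalised to gene length and library depth, scaled between libraries by the median of gene-wise ratios, and are written as scaled RPKM. Over the 24 libraries the member means ran from 3.77 scaled RPKM for ESPL1, the separase gene, to 57.6 for TPX2. Replicates lay close together, with a median absolute difference between A and B over the 40 genes of 0.03 to 0.08 on the log2 scale, depending on the group. The 12 hepatocyte markers summed to 8519 to 13903 scaled RPKM in HepG2 libraries, against 0.685 to 56.4 in SNU398 and 2.72 to 87.7 in SNU475. Both SNU lines, labelled as liver carcinoma, thus lay far below HepG2 in these markers, with 0 to 3 of the 12 above 1 scaled RPKM in both libraries of a group. Within SNU475 that sum was 2.72 to 16.5 in treated libraries and 23.1 to 87.7 in DPBS libraries. The 2 SNU475 DPBS libraries lay far apart, with albumin (ALB) at 24.1 and 1.09, and no ALB change was called in SNU475. In HepG2 the hepatocyte sum was 8519 to 8535 with the combination and 13844 to 13903 with DPBS. A list of 7 fibroblast or stellate genes summed to 292 to 344 scaled RPKM in SNU475 and SNU398 and to 8.37 to 22.4 in HepG2. Of 4 immune markers, PTPRC, CD3E and CD68 were below 1 scaled RPKM in at least 1 library of every group. The other, CD14, carried an immune sum of 4.24 to 6.54 in treated SNU475 libraries against 12.7 in both DPBS libraries. In HepG2 the immune sum was 4.66 to 5.68 with decitabine or the combination, 0.474 to 0.529 with GSK-126 and 0.985 to 1.23 with DPBS. The 4 endothelial markers summed to at most 0.687 in any library. The part of these markers in the results below was not tested.

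The mitosis genes moved in opposite directions in different lines. Their summed level in SNU475 was 879 and 877 scaled RPKM with decitabine, 907 and 915 with GSK-126 and 927 and 937 with the combination, against 615 and 621 with DPBS. All 6 treated libraries of SNU475 lay above both DPBS libraries. In SNU398 the sum was 809 and 803 with decitabine, 489 and 490 with GSK-126 and 810 and 808 with the combination, against 950 and 954 with DPBS. In HepG2 it was 559 and 567 with decitabine, 256 and 255 with GSK-126 and 407 and 412 with the combination, against 602 and 603 with DPBS. Every treated library of these 2 lines lay below its DPBS libraries, and GSK-126 alone gave the lowest sums in both. The libraries come from whole cultures, so fewer cells in G2 and mitosis and less of these RNAs per cell cannot be told apart.

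**Figure D1:**
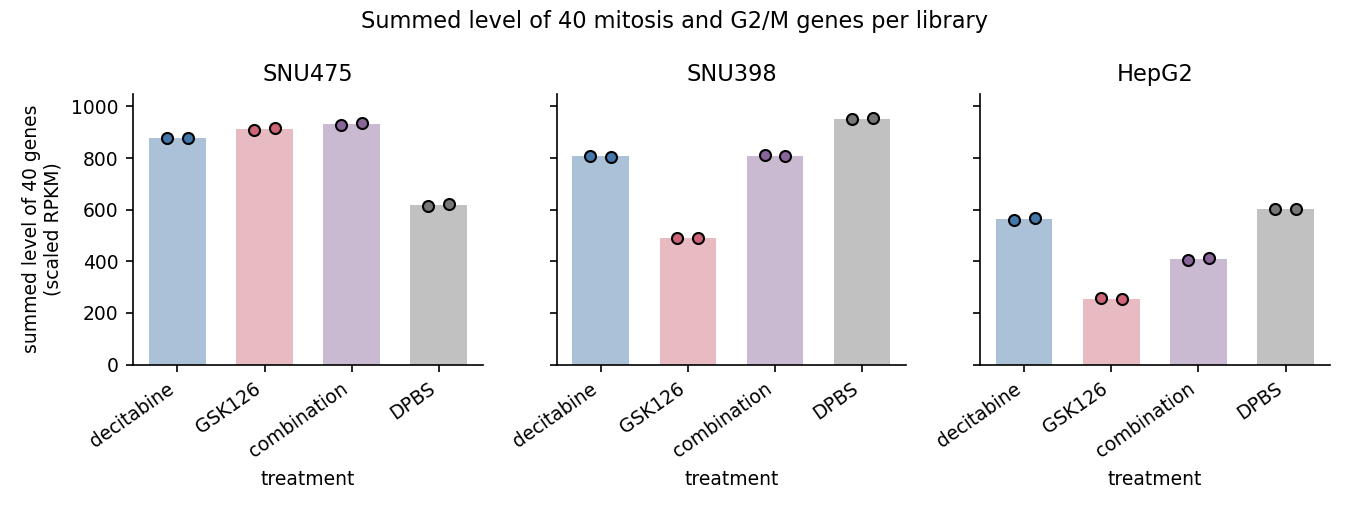
Summed level of the 40 genes in each library (scaled RPKM, y axis) by treatment (x axis) in the 3 lines; points are libraries A and B and bars their mean. SNU475 libraries lie at 877 to 937 under the 3 treatments and at 615 and 621 with DPBS, while GSK-126 libraries lie at 489 and 490 in SNU398 and at 255 and 256 in HepG2.

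Gene by gene, GSK-126 gave the most uniform picture. A gene is said to have risen or fallen where limma's adjusted p across all tested genes was below 0.05. In SNU475, 38 of the 40 genes were higher with GSK-126 than with DPBS and none was lower, with a median log2 change of 0.53, while 21.5% of all tested genes were called higher. CDC25B (log2 change 0.11) and ASPM (0.05) were the 2 not called. In SNU398 all 40 were lower, with a median of -0.95, where 22.4% of all tested genes were called lower. In HepG2 39 were lower, with a median of -1.11 and a background of 21.7%, and CENPE, a kinetochore motor, was not called (0.02). A fall of at least 2-fold was called for 17 of the 40 genes in SNU398 and 23 in HepG2, against 1.04% and 2.32% of all tested genes. Across all tested genes the median log2 change with GSK-126 was -0.02 in SNU475, 0.02 in SNU398 and 0.03 in HepG2. Of the 39 genes that fell with GSK-126 in both SNU398 and HepG2, 37 rose in SNU475, the exceptions again being CDC25B and ASPM. The share of all tested genes with this joint pattern was not computed.

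By their medians, decitabine and the combination moved the 40 genes less than GSK-126 did in SNU398 and HepG2. With decitabine in SNU475, 34 genes were higher and 2 (CENPF and ASPM) lower, with a median of 0.42, where 24.2% of tested genes were called higher and 27.3% lower. With the combination in SNU475, 36 were higher and again CENPF and ASPM were lower, with a median of 0.56 and backgrounds of 25.3% and 29.6%. In SNU398, decitabine left 1 gene higher, AURKA, and 35 lower, with a median of -0.24, where 23.4% of tested genes were called higher and 15.4% lower. The combination there gave 2 higher (AURKA and MKI67) and 30 lower with a median of -0.25, against 28.9% and 18.4%. In HepG2 the combination gave 3 higher (CDC25B, UBE2C and PTTG1) and 34 lower with a median of -0.50, against 40.6% and 25.9%, and 8 of the falls were at least 2-fold, against 2.77% of tested genes. Decitabine alone in HepG2 split the genes, with 11 higher and 19 lower and a median of -0.10, where 35.9% of tested genes were called higher and 18.3% lower. That split became 9 higher and 25 lower when libraries were not scaled, and over all tested genes the share of higher among called genes was 66.3% with scaling, 53.3% without it and 46.3% after quantile normalization.

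**Figure D2:**
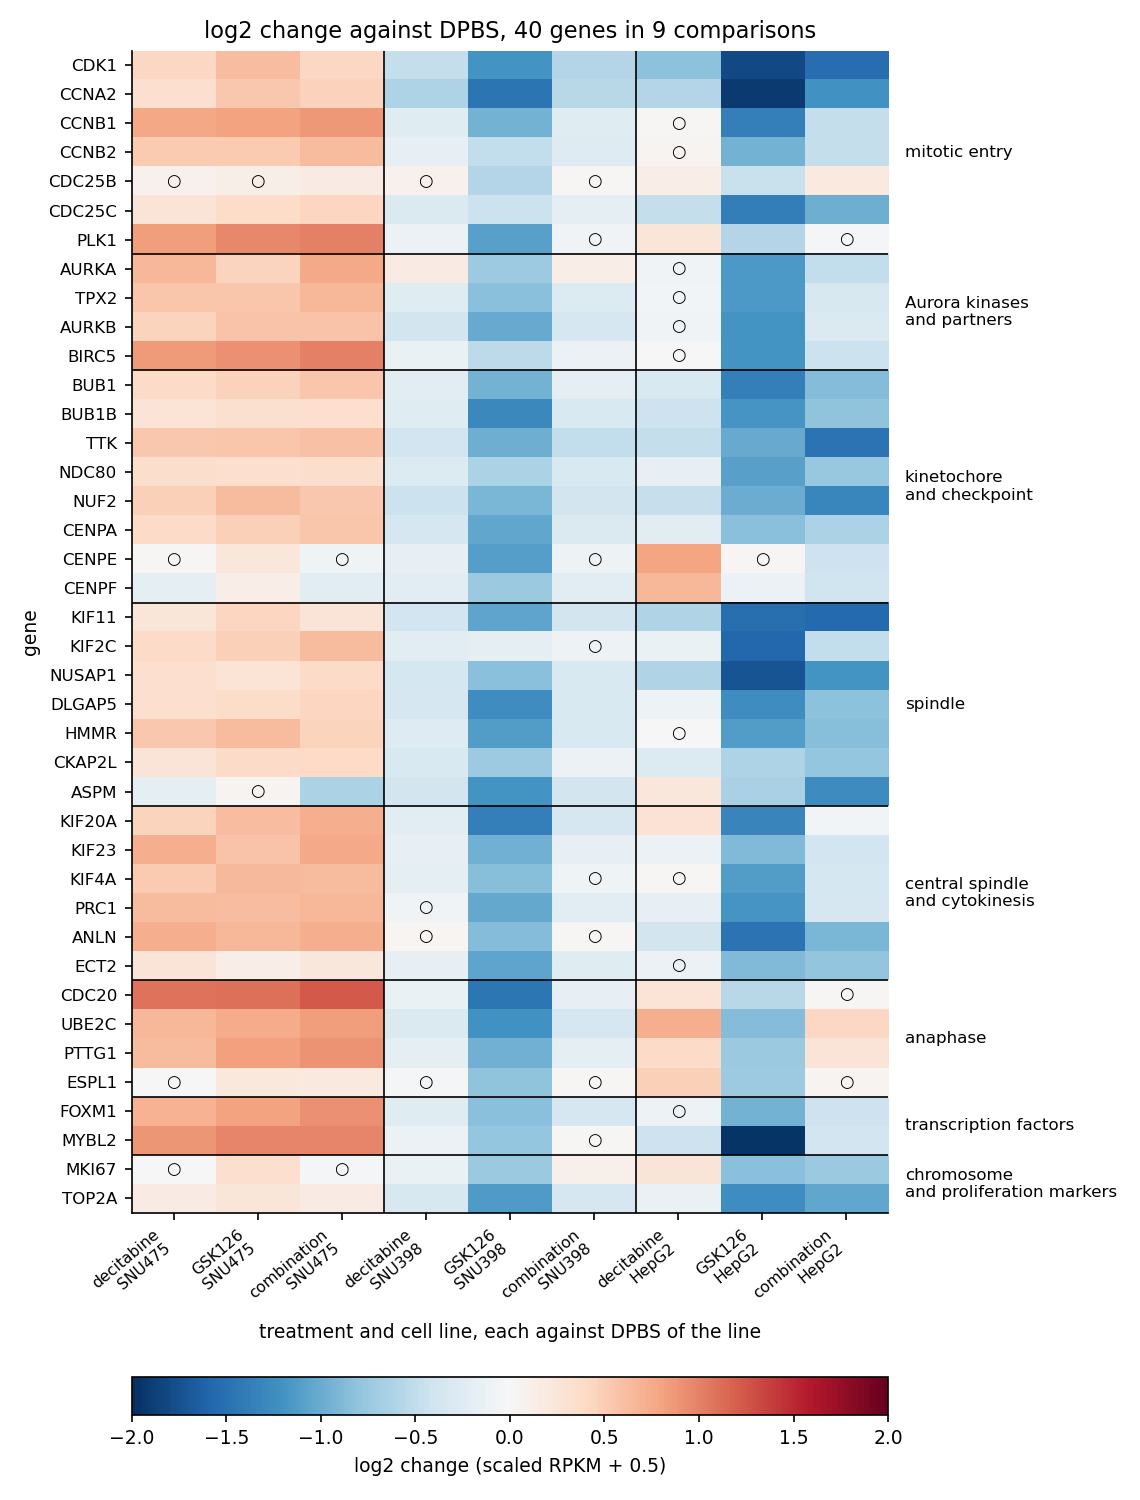
log2 change of each of the 40 genes (rows, grouped by role) in each treatment against DPBS of the same line (columns), in scaled RPKM plus 0.5; open circles mark changes not called by limma. Red fills nearly all of the SNU475 columns, while the GSK-126 column of SNU398 is blue in all 40 rows and that of HepG2 in 39.

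Promoters are shown for 6 of the genes with the largest rise or fall in a comparison, because most of the set moved the same way with GSK-126 within each line. MYBL2 had the largest fall with GSK-126 in HepG2, CCNA2 in SNU398, KIF11 with the combination in HepG2 and CDK1 with decitabine in HepG2, CDC20 had the largest rise in SNU475, and ASPM the largest fall there. Each run is the 200 bases before the RefSeq start in GRCh38.p14, 5′ to 3′ on the gene's strand. They cover chr20:43666914-43667113 (plus strand) for MYBL2, chr4:121823884-121824083 (minus) for CCNA2, chr10:60778131-60778330 (plus) for CDK1, chr10:92592930-92593129 (plus) for KIF11, chr1:43358781-43358980 (plus) for CDC20 and chr1:197146670-197146869 (minus) for ASPM. Capitals mark TTTGAA, a core of the cell cycle homology element, and CCAAT, the box bound by NF-Y, on either strand (TTCAAA and ATTGG).
MYBL2: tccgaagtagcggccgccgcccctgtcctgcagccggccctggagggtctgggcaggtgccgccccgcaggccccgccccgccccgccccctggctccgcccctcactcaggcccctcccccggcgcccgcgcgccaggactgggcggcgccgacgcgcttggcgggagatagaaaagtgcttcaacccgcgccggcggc
CCNA2: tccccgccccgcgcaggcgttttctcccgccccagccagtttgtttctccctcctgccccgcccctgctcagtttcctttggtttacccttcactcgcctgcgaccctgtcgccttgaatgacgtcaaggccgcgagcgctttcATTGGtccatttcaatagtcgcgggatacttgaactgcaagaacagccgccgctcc
CDK1: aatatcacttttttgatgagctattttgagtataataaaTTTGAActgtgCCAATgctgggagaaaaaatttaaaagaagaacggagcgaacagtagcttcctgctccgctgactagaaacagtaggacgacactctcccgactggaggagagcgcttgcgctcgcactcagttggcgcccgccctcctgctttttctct
KIF11: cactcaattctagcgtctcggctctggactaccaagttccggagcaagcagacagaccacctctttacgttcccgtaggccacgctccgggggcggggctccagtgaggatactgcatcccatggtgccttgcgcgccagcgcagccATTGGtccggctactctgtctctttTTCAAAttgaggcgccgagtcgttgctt
CDC20: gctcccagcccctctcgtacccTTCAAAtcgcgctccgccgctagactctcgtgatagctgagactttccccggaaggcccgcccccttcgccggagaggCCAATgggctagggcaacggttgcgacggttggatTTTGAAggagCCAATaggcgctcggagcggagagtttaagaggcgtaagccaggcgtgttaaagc
ASPM: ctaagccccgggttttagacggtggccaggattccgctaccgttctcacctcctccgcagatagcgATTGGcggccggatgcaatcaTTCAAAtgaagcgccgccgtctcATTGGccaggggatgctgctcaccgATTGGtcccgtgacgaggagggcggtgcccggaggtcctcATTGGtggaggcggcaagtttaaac

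The CDC20 window holds 2 copies of each motif, ASPM 1 TTTGAA and 4 CCAAT, CDK1 and KIF11 1 of each, CCNA2 1 CCAAT, and MYBL2 neither. No match says only that these letters are not in this window. In RefSeq windows from 250 bases before to 50 after the start, 34 of the 40 genes had an entry. TTTGAA was present in 23 of the 34 (67.6%), against 15.4% of 27305 promoters and 9.97% of the 10600 promoters of tested genes. CCAAT was present in 25 (73.5%), against 35.7% and 36.2%, and both motifs in 19 (55.9%), against 6.08% and 4.23%. The 2 motifs can share at most 1 end base, and a match is a description of the window, not a bound site. The 23 genes with TTTGAA had a median log2 change with GSK-126 of 0.43 in SNU475, -1.03 in SNU398 and -1.0 in HepG2. The 11 genes without it had 0.54, -0.94 and -1.36. With the combination in HepG2 the medians were -0.77 with the letters and -0.41 without them. They were 0.41 and 0.57 with the combination in SNU475, and -0.26 and -0.18 in SNU398. For decitabine they were 0.35 and 0.39 in SNU475, -0.25 and -0.23 in SNU398, and -0.12 and -0.07 in HepG2. These differences were not tested.

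Of the 7 mitotic entry genes, 6 rose with GSK-126 in SNU475 and 7 fell with it in both SNU398 and HepG2. CDK1 encodes the kinase that drives entry, CCNA2, CCNB1 and CCNB2 its cyclins, CDC25B and CDC25C the phosphatases that activate it, and PLK1 the Polo-like kinase. CCNB1, the most abundant of the class, stood at 44.4 and 44.2 scaled RPKM with decitabine in SNU475, 45.2 and 46.3 with GSK-126 and 46.4 and 48.6 with the combination, against 25.8 and 25.9 with DPBS. In SNU398 it was 32.3 and 31.0 with decitabine, 18.6 and 20.2 with GSK-126 and 31.8 and 31.4 with the combination, against 36.9 and 38.3 with DPBS. In HepG2 it was 26.2 and 27.6 with decitabine, 9.83 and 10.2 with GSK-126 and 19.2 and 18.7 with the combination, against 26 and 26.9 with DPBS. Cyclin B1 RNA therefore rose in all 3 treatments of SNU475 (log2 0.77, 0.81 and 0.87), fell in all 3 of SNU398 (-0.25, -0.94 and -0.25), and in HepG2 fell with GSK-126 (-1.36) and the combination (-0.47), with no call for decitabine (0.02).

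CCNA2, the gene of cyclin A2 at chr4:122737599-122745087 in hg19, had the largest falls of the 40 genes in SNU398 with decitabine and with GSK-126. It was at 24.4 and 23.5 scaled RPKM with decitabine, 12.7 and 13.5 with GSK-126 and 24.8 and 24.8 with the combination, against 37.1 and 36.6 with DPBS, and no treated library reached a DPBS library. The log2 change in SNU398 was -0.61 (SE 0.05, limma adjusted p = 2.4e-07) with decitabine and -1.46 (SE 0.05, adjusted p = 4.5e-12) with GSK-126, a 2.76-fold fall. Its annotated span overlaps EXOSC9, and reads in the overlap may be shared, since the strand setting is not given. CDK1 had 7.85 and 7.79 scaled RPKM with decitabine in HepG2, 3.81 and 3.58 with GSK-126 and 4.53 and 4.73 with the combination, against 14.0 and 14.3 with DPBS. Its HepG2 change with decitabine was -0.82 (SE 0.04, adjusted p = 3.3e-10), the largest fall there, and its SNU398 change with the combination was -0.59 (SE 0.04, adjusted p = 1.7e-08), also the largest. In SNU398 CDK1 stood at 23.6 and 23.3 with the combination and 36.3 and 35 with DPBS. PLK1 rose most of the class in SNU475, by 0.83, 0.96 and 1.0 with decitabine, GSK-126 and the combination. CDC25B was called least often of the class, with no call for decitabine or GSK-126 in SNU475 (0.08 and 0.11) nor for decitabine or the combination in SNU398 (0.08 and 0.02).

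**Figure D3:**
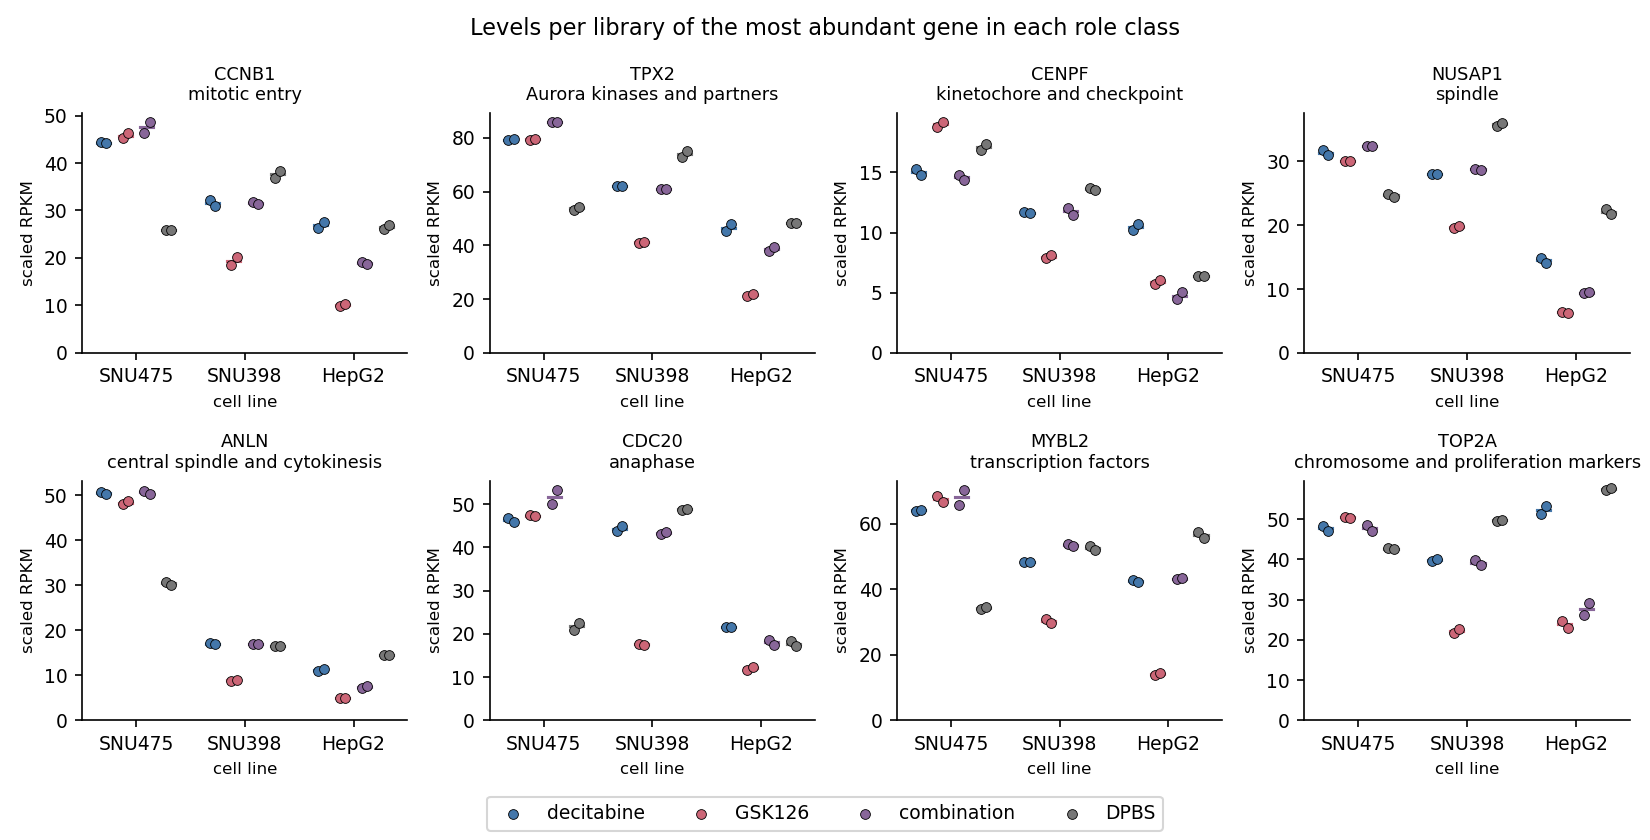
Level per library (scaled RPKM, y axis) of the gene with the highest mean in each of the 8 role classes, by cell line and treatment; points are libraries and short lines group means. In SNU475 the treated libraries lie above DPBS for every gene shown except CENPF, and in SNU398 and HepG2 the GSK-126 libraries lie below DPBS for all 8.

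The Aurora kinase class rose as a whole in SNU475, with 4 of 4 higher in each treatment, and fell as a whole with GSK-126 in SNU398 and HepG2. TPX2, the activator that carries Aurora A to the spindle, was the most abundant of the 40 genes. It stood at 79.1 and 79.4 scaled RPKM with decitabine, 79.2 and 79.6 with GSK-126 and 85.9 and 86.0 with the combination in SNU475, against 53.1 and 54.4 with DPBS. With GSK-126 it was 40.9 and 41.3 in SNU398, against 73.0 and 75.1 with DPBS, and 21.2 and 21.8 in HepG2, against 48.4 and 48.4 with DPBS. The groups did not overlap in either line. AURKA itself was the only gene of the 40 called higher with decitabine in SNU398. With the combination there it was called higher along with MKI67. AURKA was 21.8 and 20.8 with decitabine and 20.8 and 20.7 with the combination, against 18.6 and 19.2 with DPBS. These small rises were log2 0.17 (SE 0.03, adjusted p = 2.5e-04) and 0.13 (SE 0.03, adjusted p = 0.0013), while GSK-126 lowered AURKA by 0.72 on that scale, to 11.2 and 11.3. AURKB, the kinase of the chromosomal passenger complex, and BIRC5, its partner survivin, rose in every SNU475 treatment, BIRC5 by 0.85, 0.92 and 1.01. None of the 4 was called with decitabine in HepG2, where their changes lay between -0.07 and 0.01.

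Kinetochore and checkpoint genes fell in 8 of 8 cases with GSK-126 in SNU398 (-0.63 to -1.29) and in 7 of 8 in HepG2. BUB1, BUB1B and TTK are checkpoint kinases or kinase-like proteins, NDC80 and NUF2 bind microtubules, and CENPA is the centromeric histone. BUB1B showed the largest fall of the class in SNU398, at 7.31 and 7.33 scaled RPKM with GSK-126 and 18.7 and 18.6 with DPBS. In HepG2 TTK had its lowest level with the combination, at 1.26 and 1.43, against 2.21 and 1.89 with GSK-126, 3.45 and 2.96 with decitabine and 4.58 and 4.65 with DPBS. CENPE and CENPF, large kinetochore proteins, did not follow their class in HepG2 with decitabine. CENPE was 3.65 and 3.39 with decitabine, 1.90 and 1.80 with GSK-126 and 1.15 and 1.36 with the combination, against 1.85 and 1.79 with DPBS. The rise with decitabine was log2 0.79 (SE 0.05, adjusted p = 8.5e-09), the largest of the 40 genes, and with both drugs CENPE fell (-0.41, adjusted p = 5.6e-06). CENPF was 10.2 and 10.7 with decitabine, 5.73 and 6.04 with GSK-126 and 4.44 and 5.02 with the combination in HepG2, against 6.40 and 6.39 with DPBS. In SNU475 CENPF was 15.3 and 14.8 with decitabine, 18.8 and 19.2 with GSK-126 and 14.8 and 14.4 with the combination, against 16.9 and 17.4 with DPBS. It was thus the gene with the largest fall with decitabine in SNU475, at -0.18 (SE 0.04, adjusted p = 0.002), with ASPM beside it at the same rounded value.

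Spindle genes included the largest fall with the combination in HepG2. KIF11, the motor that separates the spindle poles, was 9.83 and 9.89 scaled RPKM with decitabine, 4.92 and 5.15 with GSK-126 and 4.85 and 4.89 with the combination, against 14.8 and 15.6 with DPBS. Its log2 change with the combination was -1.55 (SE 0.03, adjusted p = 1.6e-14), and the single-drug groups also lay wholly below DPBS. NUSAP1, a microtubule bundler and the most abundant of the class, was 14.9 and 14.1 with decitabine, 6.42 and 6.25 with GSK-126 and 9.37 and 9.47 with the combination in HepG2, against 22.5 and 21.8 with DPBS. KIF2C, a microtubule depolymerase, differed between lines in how far it fell. With GSK-126 it was 19.2 and 18.9 in SNU398, against 21.4 and 21.8 with DPBS, and 3.74 and 4.10 in HepG2, against 12.7 and 12.5 with DPBS. These are log2 changes of -0.18 and -1.57. ASPM, a spindle pole protein, was the main exception in SNU475, with 13.3 and 12.5 scaled RPKM with decitabine, 15.5 and 14.9 with GSK-126 and 9.72 and 8.99 with the combination, against 14.8 and 14.6 with DPBS. The combination lowered it by 0.63 on the log2 scale (SE 0.06, adjusted p = 2.3e-07), while 6 of the 7 spindle genes rose.

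The 6 central spindle and cytokinesis genes rose in all 3 SNU475 treatments and fell with GSK-126 in SNU398 and HepG2, with no exception. They comprise the kinesins KIF20A, KIF23 and KIF4A, the microtubule cross-linker PRC1, the contractile ring scaffold ANLN and the RhoA activator ECT2. ANLN had 50.8 and 50.2 scaled RPKM with decitabine, 48.1 and 48.7 with GSK-126 and 51 and 50.3 with the combination in SNU475, against 30.8 and 30.1 with DPBS. In SNU398 ANLN was 17.1 and 17.0 with decitabine and 17.0 and 16.9 with the combination, against 16.6 and 16.5 with DPBS, and neither was called (log2 0.04 and 0.03). GSK-126 took it to 8.78 and 8.93 in SNU398. KIF20A, whose span overlaps BRD8 and CDC23, had the largest SNU398 fall of the class with GSK-126 (-1.37). In HepG2 it rose with decitabine (0.29) and fell with GSK-126 (-1.32).

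The anaphase class has 4 genes. CDC20, the activator of the anaphase-promoting complex, had the largest rise of the 40 genes in SNU475 under each treatment. It stood at 46.8 and 46.0 scaled RPKM with decitabine, 47.5 and 47.2 with GSK-126 and 50 and 53.4 with the combination, against 21.0 and 22.5 with DPBS. Its log2 changes were 1.08, 1.10 and 1.23 (SE 0.04 each, adjusted p = 4.0e-11, 3.6e-11 and 5.8e-12), and the lowest treated library was above the highest DPBS library. In SNU398 GSK-126 lowered CDC20 to 17.6 and 17.5, against 48.6 and 49.0 with DPBS (log2 -1.45). In HepG2 all 4 anaphase genes rose with decitabine, including UBE2C, the ubiquitin-conjugating enzyme of the same complex, PTTG1 (securin) and ESPL1 (separase). UBE2C in HepG2 was 16.6 and 17.4 with decitabine, 5.26 and 5.41 with GSK-126 and 14.1 and 13.3 with the combination, against 10.5 and 9.70 with DPBS. Its rise with the combination, log2 0.42 (SE 0.05, adjusted p = 1.3e-06), was the largest in that comparison, in which 34 other members fell.

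MYBL2 and FOXM1, the transcription factors of the set, rose in every SNU475 treatment and fell with GSK-126 in SNU398 and HepG2. MYBL2, at chr20:42295754-42345136 in hg19, was 64.0 and 64.3 scaled RPKM with decitabine, 68.6 and 66.7 with GSK-126 and 65.7 and 70.4 with the combination in SNU475, against 33.9 and 34.7 with DPBS. In HepG2 it was 42.7 and 42.2 with decitabine, 13.9 and 14.4 with GSK-126 and 43.0 and 43.5 with the combination, against 57.6 and 55.6 with DPBS. The fall with GSK-126, log2 -1.96 (SE 0.03, adjusted p = 8.3e-16) or 3.88-fold, was the largest among the 40 genes there, and the combination libraries lay between GSK-126 and DPBS. In SNU398 MYBL2 was 30.9 and 29.8 with GSK-126 and 53.7 and 53.2 with the combination, against 53.3 and 52.0 with DPBS. FOXM1, whose span overlaps ITFG2 and RHNO1, changed by 0.69, 0.81 and 0.91 in SNU475 with decitabine, GSK-126 and the combination, and by -0.24, -0.84 and -0.33 in SNU398.

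The proliferation markers MKI67 (the Ki-67 antigen) and TOP2A (a DNA topoisomerase) did not track each other everywhere. TOP2A rose in all 3 SNU475 treatments, to 48.4 and 47.0 scaled RPKM with decitabine, 50.5 and 50.4 with GSK-126 and 48.6 and 47.0 with the combination, against 42.8 and 42.6 with DPBS. MKI67 in SNU475 was 14.2 and 14.0 with decitabine, 17.7 and 17.9 with GSK-126 and 13.2 and 14.1 with the combination, against 13.7 and 14.4 with DPBS, and was called with GSK-126 alone (log2 0.33). In HepG2 both fell with GSK-126 (MKI67 -0.83, TOP2A -1.25) and with the combination (-0.74 and -1.04). With decitabine in HepG2 MKI67 rose (0.26) and TOP2A fell (-0.14). In SNU398 both fell with decitabine (MKI67 -0.13, TOP2A -0.32) and with GSK-126 (-0.75 and -1.14). With the combination in SNU398 MKI67 rose slightly (0.10) and TOP2A fell (-0.34).

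The combination was called lower than decitabine alone for nearly all of the genes in HepG2, and for few of them in SNU398 and SNU475. Against decitabine alone, the combination had 38 of the 40 genes lower in HepG2, with a median log2 difference of -0.49 (25.8% of all tested genes lower), CDC25B and MYBL2 not being called. In SNU398 the same comparison called 4 higher and 4 lower, with a median of 0.00, where 12.5% of tested genes were higher and 8.07% lower. After quantile normalization it called 4 higher and 2 lower. In SNU475 it called 14 higher and 1 (ASPM) lower, with a median of 0.09 and backgrounds of 7.39% and 10.9%. That SNU475 count was 9 in all without decitabine library A, and the SNU398 count was 4 or 5 in all without any 1 of its 4 libraries. Whether the lines differed in this step was not tested.

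Against GSK-126 alone, the combination was higher for most of the genes in SNU398 and HepG2. It had 39 of 40 genes higher in SNU398, with a median of 0.76 (26.6% of tested genes higher, or 7348 genes without scaling against 5157), and KIF2C was not called (0.08). In HepG2 32 were higher and 6 lower, with a median of 0.52 and backgrounds of 36.9% and 28.8%. MYBL2 showed the largest of these rises (1.57). The 6 lower ones were TTK, NUF2, CENPE, CENPF, CKAP2L and ASPM, all from the kinetochore and spindle classes. In each of these 2 classes 4 other genes were higher. In SNU475 10 were higher and 7 lower, with a median of 0.05, where 18.2% of tested genes were higher and 17.7% lower, and after quantile normalization the split was 6 higher and 8 lower.

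The interaction term sets the combination against the value that the 2 single-drug effects would give when multiplied, so a positive value means a level above that product. It was positive for all 40 genes in SNU398, with a median of 0.96 on the log2 scale, where 18.4% of all tested genes were called higher (5349 genes without scaling, against 3575). CCNA2 had the largest value in SNU398, 1.51 (SE 0.07, limma adjusted p = 4.4e-10), and KIF2C the smallest, 0.30. In HepG2 34 were called above and 4 below the product, with a median of 0.58 and backgrounds of 25.1% and 27.9%. MYBL2 reached 1.98 there (SE 0.04, adjusted p = 1.1e-13), and the negative genes were CENPE (-1.22), CENPF (-0.96), ASPM (-0.83) and MKI67 (-0.18). In SNU475 all 40 values were negative and 37 were called, with a median of -0.42, against 16.7% of tested genes called lower. CDC20 was the farthest at -0.95 (SE 0.06, adjusted p = 2.6e-08), its combination level of 50 and 53.4 being close to that of each drug alone. CDC25B, ECT2 and ESPL1 were not called. For most genes, then, the combination stayed below the product of 2 rises in SNU475 and above the product of 2 falls in SNU398.

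**Figure D4:**
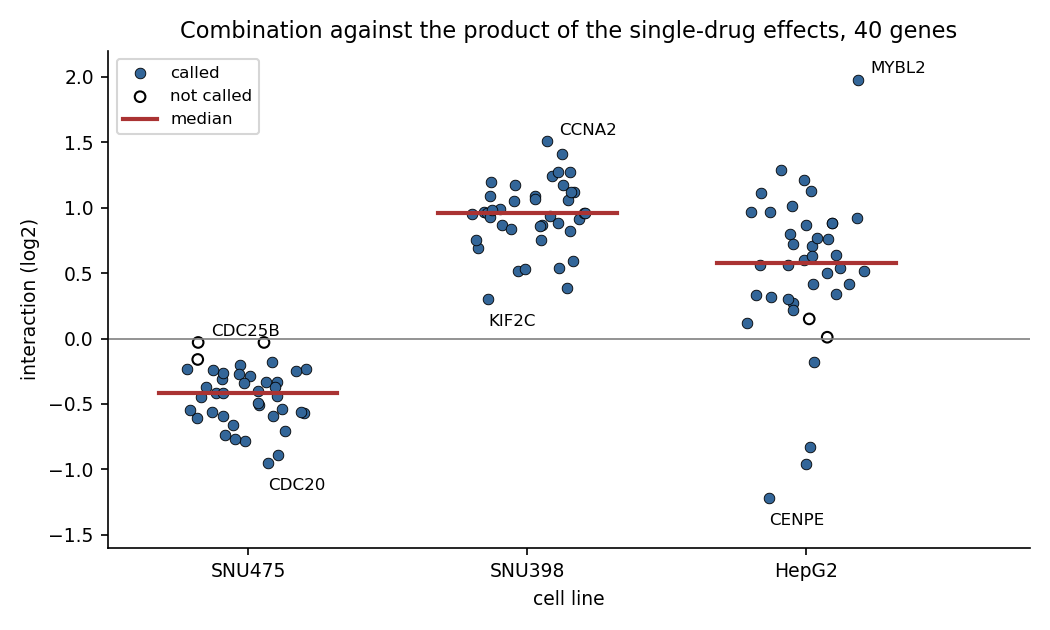
Interaction term (log2, y axis) of each of the 40 genes in each cell line (x axis); filled points were called by limma, open points were not, and red lines are medians. Medians are -0.42 in SNU475, 0.96 in SNU398 and 0.58 in HepG2, where MYBL2 (1.98) and CENPE (-1.22) lie at the ends.

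Effects were also set against each other between lines. With GSK-126, all 40 genes had a higher change in SNU475 than in HepG2, with a median difference of 1.62 (22.6% of all tested genes higher), and than in SNU398, with a median of 1.51 (22.3%). The difference was largest for MYBL2 against HepG2 (2.93, SE 0.04, adjusted p = 8.5e-16) and for CDC20 against SNU398 (2.55, SE 0.06, adjusted p = 1.7e-13). With decitabine, 33 genes had a higher and 5 a lower change in SNU475 than in HepG2 (21.5% and 36.4% of tested genes), and 36 had a higher change than in SNU398 (20.8%). With the combination, 38 were higher than in HepG2, median 1.16 (24.8%), and 35 higher and 2 lower than in SNU398, median 0.76 (22.7% and 33.8%). SNU398 and HepG2 differed less evenly. SNU398 minus HepG2 gave 18 higher and 8 lower with GSK-126 (27.3% and 25.0%), 8 higher and 19 lower with decitabine (18.0% and 26%), and 29 higher and 5 lower with the combination (26.2% and 31.9%). Without scaling the GSK-126 split was 15 and 15, so its direction over the set rests on the scaling, and the decitabine split was 9 and 13. The comparisons against DPBS share their DPBS libraries within a line.

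Under DPBS the lines already differed in these genes, SNU398 most clearly from the other 2. SNU475 was lower than SNU398 for 34 genes and higher for 5, with a median of -0.54, where 40% of all tested genes were higher and 38.1% lower. BIRC5 differed most, at 7.90 and 8.43 scaled RPKM in SNU475 and 44.2 and 43.4 in SNU398. SNU398 was higher than HepG2 for 34 genes and lower for 6, with a median of 0.78 (40% and 36.5%), led by DLGAP5, a spindle protein, at 35.6 and 37.4 in SNU398 and 8.17 and 8.10 in HepG2. SNU475 against HepG2 gave 22 higher and 15 lower, with a median of 0.15 (42.4% and 36.9%), the lower count being near the share of all tested genes. Scaling shifted the median of all genes by -0.21 in SNU398 against HepG2 and by -0.11 in SNU475 against HepG2. Unscaled, these gave 37 higher and 2 lower with a median of 1.11, and 25 higher and 10 lower with a median of 0.35. HMMR, MYBL2 and TOP2A, slightly lower in SNU398 than in HepG2 (-0.12, -0.10 and -0.21), were higher without scaling (0.21, 0.24 and 0.14). CDK1, BUB1 and KIF2C were called lower in SNU475 than in HepG2 (-0.13, -0.10 and -0.18). Without scaling they were not called (0.06, 0.09 and 0.02).

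Most members moved with the set as a whole. After each gene was centred on its line, its Pearson correlation over the 24 libraries with the mean of the other 39 was lowest for CENPF (0.61), ASPM and CENPE (0.64 each), CDC25B (0.77) and KIF2C (0.80). Within the 8 SNU475 libraries it was -0.44 for ASPM, -0.20 for CENPF and 0.20 for CENPE. This is a description, since the libraries share treatments. CENPF, ASPM and CENPE, with MKI67, are also the 4 longest members, at 11663, 10887, 9444 and 12807 bases in the table, against 8890 for ESPL1 just below them and 1641 for UBE2C, the shortest. The limit of 9000 bases was chosen after these values were seen. With the combination in SNU475 the 4 long genes had a median log2 change of -0.16 and the other 36 of 0.57. With decitabine in HepG2 the medians were 0.46 for the long genes and -0.12 for the others, with the combination there -0.57 and -0.50, and the HepG2 interaction was -0.89 for the long genes and 0.63 for the others. With GSK-126 the medians were -0.38 for the long genes and -1.15 for the others in HepG2, and 0.18 and 0.55 in SNU475. In SNU398 the long genes did not stand apart, with an interaction of 1.07 for the long genes and 0.96 for the others. Among other tested protein-coding genes, the 1753 of at least 9000 bases had a median of -0.18 with the combination in SNU475 against -0.00 for 11948 shorter ones, -0.17 against 0.03 for the HepG2 interaction, and 0.13 against 0.06 with decitabine in HepG2. With GSK-126 the medians of these long and shorter protein-coding genes were 0.07 and 0.01 in HepG2, and -0.13 and -0.02 in SNU475. The part of length in these values was not tested.

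**Figure D5:**
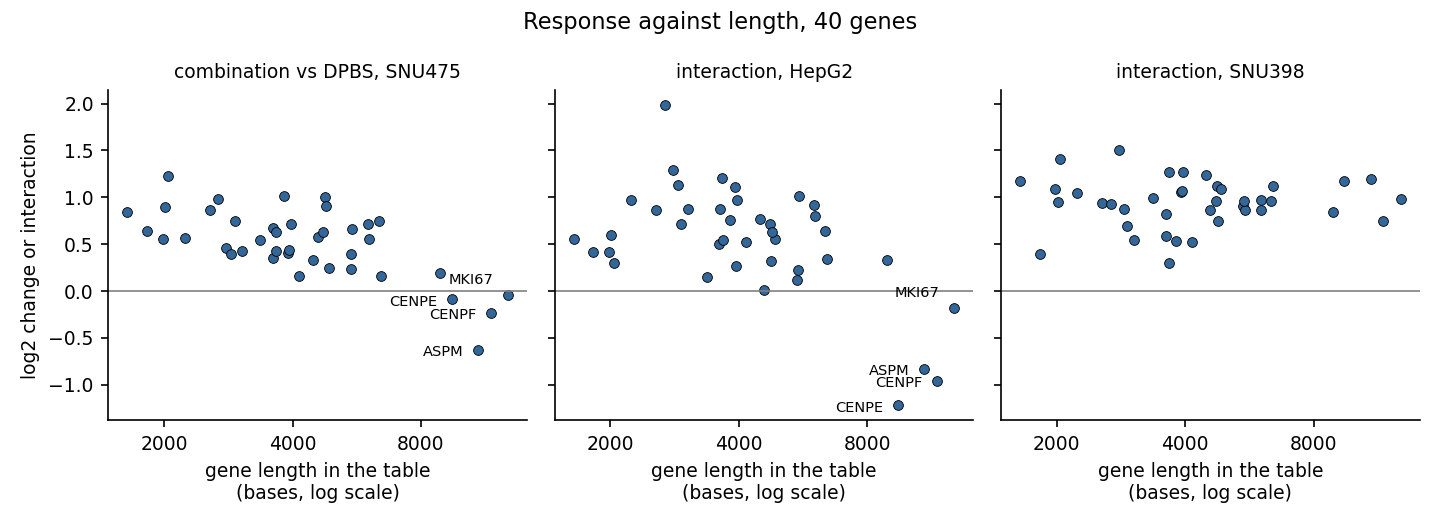
log2 change with the combination in SNU475, and interaction term in HepG2 and in SNU398 (y axes), against gene length in bases on a log axis; each point is 1 of the 40 genes. CENPE, CENPF, ASPM and MKI67, the 4 genes above 9000 bases, lie at the bottom in SNU475 and HepG2 and within the cloud in SNU398.

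Further mitosis genes outside the set were counted in 5 lists of 123 genes, of which 122 were tested. With GSK-126, 84 were higher and 18 lower in SNU475 (median log2 0.26), 9 higher and 101 lower in SNU398 (-0.55), and 8 higher and 102 lower in HepG2 (-0.73). Of all tested genes, GSK-126 called 21.5% higher and 28.5% lower in SNU475, 30.0% higher and 22.4% lower in SNU398, and 31.0% higher and 21.7% lower in HepG2. Of the other spindle and cytokinesis genes, 23 of 30 were higher in SNU475 and all 30 lower in both SNU398 and HepG2. Of the other kinetochore and checkpoint genes, 31 of 38 were higher in SNU475, 33 lower in SNU398 and 34 lower in HepG2. The anaphase-promoting complex moved least, with medians of 0.08, -0.25 and -0.11 over its 17 genes in SNU475, SNU398 and HepG2. In SNU475 UBE2S, an elongating enzyme of that complex, rose most, to 43.5 and 39.5 scaled RPKM with GSK-126, against 17.3 and 17.4 with DPBS (log2 1.23), and ESCO1, a cohesin acetyltransferase, fell most (-0.73). In SNU398 ANAPC16, a subunit of the complex, rose most (0.48) and MAD2L1, the checkpoint protein MAD2, fell most, to 2.8 and 2.76 with GSK-126, against 9.91 and 8.77 with DPBS (-1.58). In HepG2 NIPBL, the cohesin loader, rose most (0.43), and NCAPG, a condensin subunit, fell to 2.31 and 2.07 with GSK-126, against 11.6 and 12.4 with DPBS (-2.22). A list of 14 DNA replication and G1/S genes gave 12 higher in SNU475, 12 lower in SNU398 and 14 lower in HepG2 with GSK-126, with medians of 0.54, -0.38 and -1.68.

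Among tested genes in no list, those most like the mean of the 40 across the 24 line-centred libraries were CDCA2 (Pearson r 0.990), AC004381.6 (0.974), GLE1 (0.973), CDKN3 (0.969), CDCA3 (0.967), ACAT2 (0.962), SHCBP1 (0.961) and DNMT1 (0.959). These correlations are given as a description over libraries that share treatments.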

How the data were processed

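Strand-marking libraries from rRNA-depleted total RNA were read as single reads of 75 bases, per the labels' protocols. Reads were aligned to hg19 with HISAT2 and counted with featureCounts, per the submitters' processing notes, and versions, strand setting and annotation release were not given in the sources used here. The authors deposited RPKM per gene, and for 25 of the 40 genes, which overlap another gene (12 a protein-coding one), reads may be shared. A deposited table of repeat loci was not used here. 1 immune marker is not reported here and was left out of that list's sums. Whole reads were recovered from the RPKM steps, with each library's read total fitted so that low values came out whole. The check covered 11322 to 15921 values per library, those with few reads and little rounding doubt. Of these, 100.0% were whole within 0.15 reads. RPKM was scaled by the median of ratios over 8211 genes (factors 0.847 to 1.158). Tests used limma 3.58.1 in R 4.3.3 on log2(scaled RPKM + 0.5), computed here from the deposited RPKM, for 19377 genes with at least 0.5 RPKM in 2 or more libraries. One model held all 12 groups (12 residual degrees of freedom), with trend and robust moderation and Benjamini-Hochberg adjustment over all tested genes in each of 30 contrasts, two-sided. Fold changes on this scale understate the change of low genes. The fit was tested on simulated data. Tables and plots were made with Python 3.11.15, pandas 2.3.3 and matplotlib 3.10.9. Alternatives were no scaling, quantile normalization, other pseudocounts and filters, limma's voom on the recovered reads, fits within a line, the replicate block and leaving out each library. Values per library are given for the most abundant gene of each role class, for the genes with the largest called rise and fall against DPBS, for the largest interaction, and in each line for the listed genes with the largest rise and fall with GSK-126, and other members were named after their values were seen. The members, lists and tests were chosen with earlier results of these data known.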

Additional observations from a re-analysis of the deposited data

Results flagged for a closer look

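Drug effects differed between lines by the test of the difference itself (limma, adjusted over all tested genes). With GSK-126 all 40 genes differed between SNU475 and HepG2, MYBL2 most (2.93 on the log2 scale), all 40 between SNU475 and SNU398, CDC20 most (2.55), and 26 between SNU398 and HepG2, KIF2C most (1.39). Of all tested genes 56.5%, 56.0% and 52.3% differed in these comparisons. With decitabine the counts were 38 for SNU475 against HepG2, with MYBL2 at 1.30, 36 for SNU475 against SNU398, with CDC20 at 1.21, and 27 for SNU398 against HepG2, with UBE2C at -1.02, where 57.9%, 49.8% and 44.0% of all tested genes differed. With the combination they were 38 for SNU475 against HepG2, with TTK at 2.05, 37 for SNU475 against SNU398, with CDC20 at 1.40, and 34 for SNU398 against HepG2, with KIF11 at 1.19, where 64.6%, 56.5% and 58.1% of all tested genes differed. SNU475 was harvested 7 days later, and line and harvest day cannot be told apart.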

How the results depend on the processing

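The 30 member counts were recomputed under 10 alternatives where each applied, which gave 288 values. Of these, 285 stayed within 1.5 times the reported count with no reversal between mostly higher and mostly lower. A tie was not counted as a reversal. GSK-126 in SNU398 minus HepG2 lost its direction without scaling, at 15 higher and 15 lower against 18 and 8. The combination against decitabine in SNU398, at 4 higher and 4 lower, had no direction to keep. The 18 results for single named genes kept their direction and their call in all 612 refits. The combination against decitabine in SNU398 called 5 genes with no filter on low values, against 8 reported, and in SNU475 it called 23 with voom, against 15. The combination against GSK-126 in SNU475 called 14 after quantile normalization, 6 of them higher, against 17 with 10 higher. The cause was not tested. Leaving out each library in turn, the combination against decitabine called 4 to 8 genes in SNU398 and 9 to 17 in SNU475, and 715 of the 720 values with a library left out stayed within 1.5 times the reported count.

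With the replicate letter as a replicate block, GSK-126 gave 38 higher in SNU475 and decitabine gave 11 higher and 20 lower in HepG2. Deviations of same-letter libraries of a line correlated at -0.12 to 0.24 (median 0.01, 18 pairs, 3 over 0.1). These values cannot settle if the letters pair the libraries, since a weak correlation can occur with or without pairing.

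Over all tested genes, the share of higher among called genes moved by more than 10 points with the scaling. Without scaling, GSK-126 in SNU398 gave 3987 higher and 6432 lower genes (5816 and 4331 reported), where 40 members were lower either way, the combination against GSK-126 in SNU398 gave 7348 and 2842 (5157 and 4544), and the SNU398 interaction gave 5349 and 2922 (3575 and 4426). After quantile normalization the combination in HepG2 gave 5979 and 6496 (7864 and 5024 reported), decitabine in SNU398 3695 and 3832 (4543 and 2978), and the combination in SNU398 4474 and 4621 (5592 and 3573). Between lines without scaling, SNU398 against HepG2 under DPBS gave 9666 and 5401 (7759 and 7082 reported), and SNU398 minus HepG2 gave 4285 and 3761 with decitabine (3488 and 5042) and 4089 and 5973 with GSK-126 (5290 and 4844), and SNU475 minus SNU398 gave 5399 and 5366 with GSK-126 (4312 and 6539). SNU475 minus HepG2 gave 5357 and 5219 with decitabine after quantile normalization (4165 and 7057) and 6201 and 6064 with the combination (4815 and 7712), and SNU398 minus HepG2 gave 4259 and 3877 with decitabine. Depth was lowest for NUF2 and TTK with the combination in HepG2, at 161 and 163 reads in library A.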

Other observations

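Some genes outside the lists bear on the drugs or the cell cycle and were looked up with earlier results known. CDKN1A, an inhibitor of cyclin-dependent kinases, was 5.38 and 5.31 scaled RPKM with GSK-126 in SNU398, against 1.47 and 1.41 with DPBS (log2 1.59, limma adjusted p = 4.3e-12). In HepG2 it was 43.5 and 44.0 with decitabine, 16.1 and 16.7 with GSK-126 and 78.0 and 71.5 with the combination, against 18.9 and 18.2 with DPBS. With GSK-126 alone CDKN1A thus rose in SNU398 and fell slightly in HepG2 (-0.17), the 2 lines in which the mitosis genes fell. In SNU398 CDKN1A also rose with decitabine (0.68) and with the combination (1.33). Its relation to the mitosis genes was not tested. In SNU475 CDKN1A was 24 and 23 with GSK-126, against 19.3 and 18.9 with DPBS (0.29). It rose there with the combination (0.38) and was not called with decitabine (0.07). EZH2, the target of GSK-126, changed with that drug by 0.51 in SNU475, 0.32 in SNU398 and -0.88 in HepG2, and DNMT1, a target of decitabine, by 0.27, -0.55 and -0.77.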
